A study of Mus musculus with 10 samples.

Results

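The genes described here across 10 mouse hearts are the prolyl hydroxylases Egln1, Egln2 and Egln3, the HIF alpha subunits Hif1a, Epas1 and Hif3a, the von Hippel-Lindau gene Vhl, and the hypoxia targets Vegfa, Bnip3 and Ankrd37. They were chosen by name, and all 10 of 10 were present among the 15341 genes of the count table and passed the filter on low counts, which 12992 genes passed. RNA sequencing was run on heart tissue of male littermates, 5 plasma S1Pless animals (Sphk1f/-:Sphk2f/-:Mx1Cre+) and 5 controls (Sphk1f/-:Sphk2f/-:Mx1Cre-). Both groups thus carried 1 floxed allele with a missing partner at each sphingosine kinase gene, and only the S1Pless animals carried the Cre recombinase driven by the Mx1 promoter, which responds to interferon and is active in blood-forming cells and in some others. The series names these animals for the loss of sphingosine 1-phosphate, a lipid messenger, from plasma, and its title names vascular resistance and cardiac function. Cre itself, and any loss of the kinases in cells of the heart, cannot be told apart from the loss of plasma sphingosine 1-phosphate. The age of the animals is not stated in the labels used here.

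Hypoxia-inducible factors (HIFs) are transcription factors made of an oxygen-regulated alpha subunit and the stable partner ARNT. In the presence of oxygen the EGLN enzymes, also called PHD, hydroxylate prolines of the alpha subunit, the VHL protein binds the hydroxylated form, and the subunit is degraded. When oxygen is short the alpha subunit persists and raises genes of glycolysis, vessel growth and mitochondrial turnover. Egln3 and, in many cells, Egln1 are themselves among its targets, and heart muscle is known for high Egln3. HIF alpha activity is set mainly at the protein level, which transcript counts do not measure.

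The stretches before the transcription starts of 3 members are shown because Egln3 and Bnip3 were the members whose groups did not overlap, and Egln1 is the related enzyme gene that is also a known HIF target. Each is the 250 bases before the start from RefSeq, build GRCm38.p6, 5′ to 3′ on the gene's strand. The counts were made on GRCm39, so these positions belong to the sequences only. Capitals mark the HIF response element core, searched as ACGTG and GCGTG on both strands, where CACGTG counts once on each strand.
Egln3 (chr12:54203875-54204124, minus strand): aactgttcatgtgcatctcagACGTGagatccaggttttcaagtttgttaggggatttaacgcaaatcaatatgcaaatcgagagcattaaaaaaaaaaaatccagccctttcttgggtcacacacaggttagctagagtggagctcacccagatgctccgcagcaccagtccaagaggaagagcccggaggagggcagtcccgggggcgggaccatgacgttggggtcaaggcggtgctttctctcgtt
Bnip3 (chr7:138909507-138909756, minus strand): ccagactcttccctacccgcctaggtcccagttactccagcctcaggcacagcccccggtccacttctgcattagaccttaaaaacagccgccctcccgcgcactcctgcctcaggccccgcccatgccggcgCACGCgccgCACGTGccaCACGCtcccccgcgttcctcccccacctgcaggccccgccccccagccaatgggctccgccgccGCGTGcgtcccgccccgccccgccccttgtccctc
Egln1 (chr8:124949255-124949504, minus strand): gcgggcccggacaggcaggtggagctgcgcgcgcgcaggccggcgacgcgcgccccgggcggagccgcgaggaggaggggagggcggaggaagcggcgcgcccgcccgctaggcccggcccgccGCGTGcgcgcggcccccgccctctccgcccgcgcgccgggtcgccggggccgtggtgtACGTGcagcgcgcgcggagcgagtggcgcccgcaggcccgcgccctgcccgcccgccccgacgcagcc
Egln3 held 1 core, 229 bases before the start, Bnip3 held 5 and Egln1 held 2. Of the 10 members 9 matched a promoter in the table, and 8 of these had a core in at least 1 window of 300 bases (250 before the start and 50 after it). The core is common: 43.8% of all 32851 such windows held it, and 9 of the 11 windows of the members did. This difference was not tested. The matches describe these windows and show no binding.

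Libraries held 16354071 to 20832566 counts. Levels are given as CPM, counts scaled to a common library size with trimmed-mean factors, on which 1 read equals 0.0451 to 0.0658 CPM. A gene is called when its adjusted p is below 0.05 in the quasi-likelihood test of edgeR, adjusted by Benjamini and Hochberg's method over all 12992 genes tested. Of these genes 3.72% were called, 41 of them lower in S1Pless hearts (0.316%) and 442 higher (3.4%). The hearts had the identity their label gives: all 10 cardiomyocyte markers, among them Myh6, Tnnt2 and Ttn, were detected, at 72221 to 83577 CPM in sum in controls and 59317 to 73929 CPM in S1Pless hearts. All 10 of these markers had a log2 fold change below 0 with a median of -0.19, and none was called by edgeR (1 at an unadjusted p below 0.05, and 1, Pln, called by DESeq2). The sum of 12 macrophage markers was 243 to 310 CPM in the controls and 378 to 798 CPM in S1Pless hearts, 6 of the 12 were called higher, and the highest value belonged to S1Pless replicate 5. With a block for neighbouring title numbers, described with Egln3, 0 of the 12 were called by edgeR (7 at an unadjusted p below 0.05), with the title series (numbers starting with 38 or 44) as a covariate 3 were, and DESeq2 without either term called 10. Of 10 endothelial markers 7 had a log2 fold change above 0 and 1, Erg, was called higher, with sums of 1262 to 1497 CPM in the controls and 1373 to 1591 CPM in S1Pless hearts. Of 10 fibroblast markers 9 had a log2 fold change above 0 and 1, Dpep1, was called higher, with sums of 1731 to 2544 and 2265 to 2641 CPM. In whole tissue, fewer cells of a type and less RNA per cell cannot be told apart. Whether the cell makeup had a part in the differences below was not tested.

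Of the 10 members 1, Egln3, was called, and it was lower in S1Pless hearts. Egln3 (ENSMUSG00000035105) encodes PHD3, the hydroxylase whose transcript is most strongly induced by hypoxia in many tissues. Controls 1 to 5 had 61.8, 102, 73.5, 60.2 and 106 CPM, from 939 to 1892 reads. S1Pless hearts 1 to 5 had 40.3, 40.4, 55.3, 52.1 and 52.3 CPM, from 808 to 1104 reads. Every S1Pless heart lay below the lowest control, and the controls spread more widely, with a coefficient of variation of 27.0% against 14.9%. Control replicates 2 and 5 were the high ones, while control replicates 1 and 4 were within 7 CPM of the highest S1Pless heart. The means were 80.6 ± 21.8 and 48.1 ± 7.18 CPM (SD, n = 5 each), a 1.68-fold fall (log2 fold change -0.75 ± 0.17, SE, 95% interval -1.1 to -0.39, edgeR adjusted p = 0.0281). Groups that did not overlap were seen in 6.35% of all tested genes, with S1Pless lower in 1.82% and higher in 4.53%. The fall was already known when the members were chosen, so the count of 1 member called is no separate support.

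**Figure D1:**
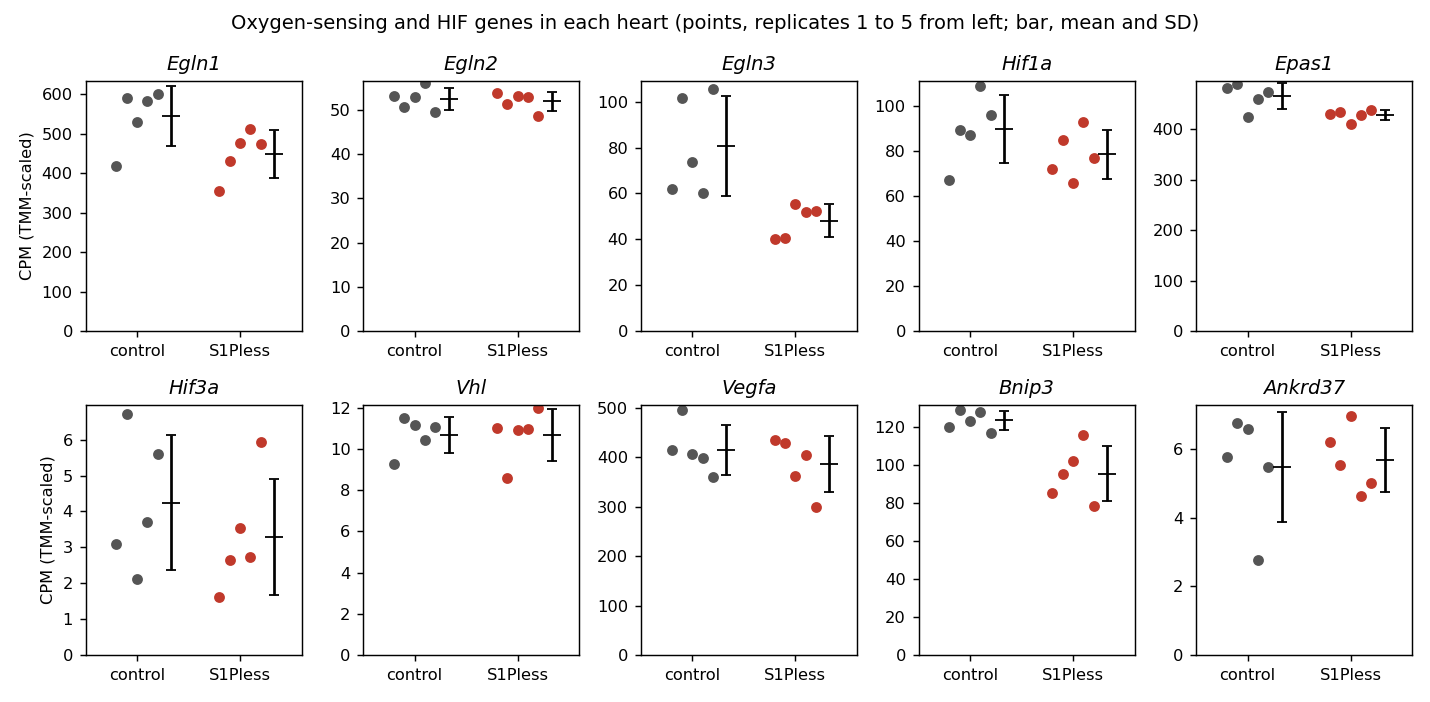
CPM (linear axes from 0) of each member in each heart, with control hearts in grey, S1Pless hearts in red and the mean and SD of each group beside them. The groups are separate in Egln3 (controls 60.2 to 106, S1Pless 40.3 to 55.3 CPM) and in Bnip3 (117 to 129 and 78.7 to 116 CPM) and overlap in the other 8 genes.

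The call of Egln3 depended on which hearts were included, while its direction did not. Leaving out control replicate 2, 3 or 5 took the edgeR adjusted p to 0.0637, 0.0574 and 0.0654, and leaving out S1Pless replicate 1 or 2 took it to 0.0586 and 0.0507. The call held in the other 5 of 10 such fits. Without S1Pless replicate 5, the heart with the lowest cardiomyocyte and the highest macrophage marker sum, the log2 fold change was -0.78 (edgeR adjusted p = 0.0485). The log2 fold change stayed between -0.84 and -0.63 in those 10 fits. The sample titles end in numbers that the labels do not explain. Among the 7 hearts whose number starts with 38 the log2 fold change was -0.72, with an adjusted p of 0.137, and among those starting with 44 the single control had 106 CPM and the S1Pless hearts 52.1 and 52.3 CPM. With a block for neighbouring title numbers the log2 fold change was -0.84 (edgeR adjusted p = 0.00485). Control replicate 1 shared a block with S1Pless replicates 1 and 2, control replicate 2 with S1Pless replicate 3. Control replicate 5 shared a block with S1Pless replicates 4 and 5. Control replicates 3 and 4 (73.5 and 60.2 CPM) formed a block without S1Pless hearts and so did not enter this group difference. It rested on control replicates 1, 2 and 5 (61.8, 102 and 106 CPM). Over all 20 alternatives the adjusted p ran from 0.000915 to 0.137.

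**Figure D2:**
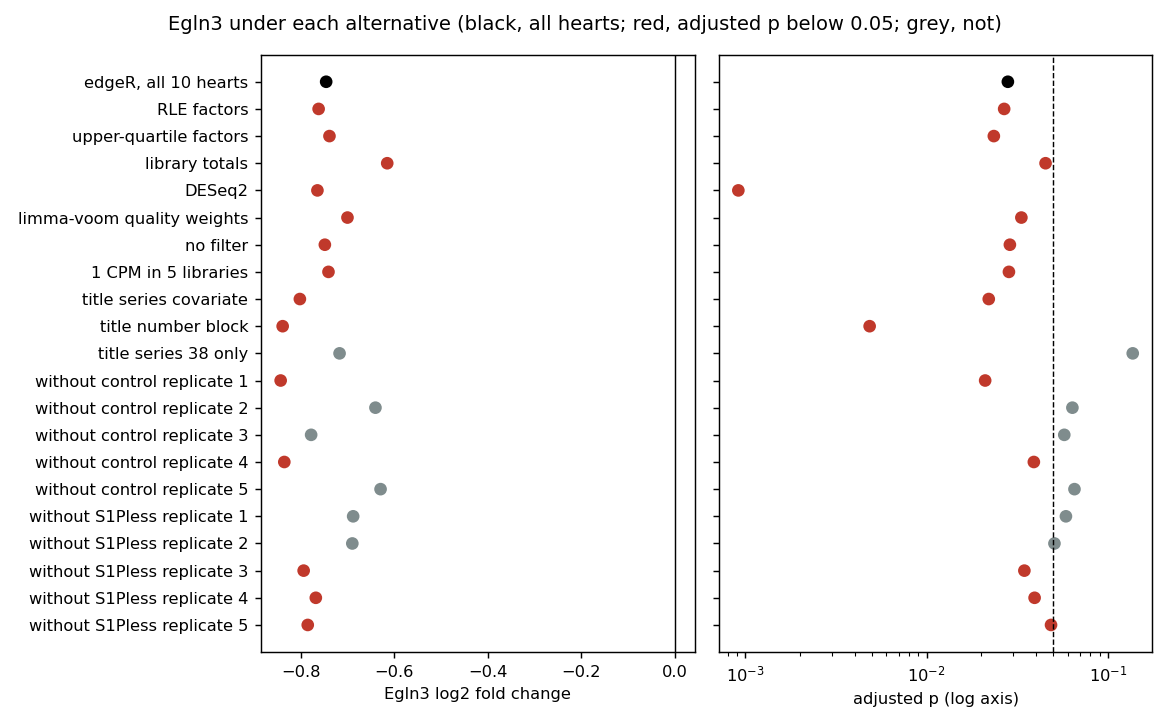
Log2 fold change of Egln3 (left) and its adjusted p on a log axis (right) with all 10 hearts and under each of 20 alternatives, 1 per line. All fold changes lie between -0.84 and -0.61, and 14 of the 20 alternatives keep the adjusted p below the dashed line at 0.05.

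The other hydroxylases were not called. Egln1 (ENSMUSG00000031987), which encodes PHD2, the main regulator of HIF alpha in most cells, had 419, 590, 529, 582 and 600 CPM in the controls and 354, 431, 476, 510 and 473 CPM in S1Pless hearts. The lowest control lay inside the S1Pless range, so the groups overlapped. Its log2 fold change was -0.28 ± 0.13 (95% interval -0.55 to -0.0045), with an unadjusted p of 0.0468 and an edgeR adjusted p of 0.243. Egln2 (ENSMUSG00000058709), which encodes PHD1, was the steadiest of the 3, at 49.6 to 56.0 CPM in controls (median 52.8) and 48.5 to 53.7 CPM in S1Pless hearts (median 52.8). Its log2 fold change was -0.02 ± 0.07, and the 95% interval, -0.17 to 0.14, spans changes from 0.890 to 1.10 times the control level.

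Per kilobase of exon, Egln1 was the most abundant of the hydroxylase transcripts. On this scale of CPM per kilobase, controls had 151 ± 21 for Egln1, 30.3 ± 8.17 for Egln3 and 18.7 ± 0.896 for Egln2, and S1Pless hearts had 125 ± 16.8, 18.1 ± 2.7 and 18.5 ± 0.738. In controls the ranges of Egln3 and Egln2 did not overlap, and in S1Pless hearts they did. Egln3 made up 15 ± 2.69% of the summed hydroxylase level per kilobase in controls (11 to 17.7%) and 11.2 ± 0.836% in S1Pless hearts (9.90 to 12.1%). These shares are a description and share the Egln3 values given above. Lengths are from an annotation of an older build and count every annotated exon, so levels between genes are approximate.

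None of the HIF alpha subunits was called. Hif1a (ENSMUSG00000021109), the widely expressed subunit that drives glycolytic targets, had 67.0, 89.4, 87.3, 109 and 96.2 CPM in the controls and 71.9, 84.8, 65.7, 93.0 and 77.1 CPM in S1Pless hearts. The ranges overlapped, with control replicates 4 and 5 above every S1Pless heart and S1Pless replicate 3 below every control. The log2 fold change was -0.19 ± 0.13 (95% interval -0.47 to 0.08, edgeR adjusted p = 0.429). Epas1 (ENSMUSG00000024140) encodes HIF-2 alpha, the subunit prominent in endothelium. It had 482, 491, 425, 461 and 473 CPM in the controls and 430, 435, 411, 428 and 437 CPM in S1Pless hearts. Only control replicate 3 reached into the S1Pless range, and the log2 fold change was -0.12 ± 0.08 (95% interval -0.30 to 0.06, edgeR adjusted p = 0.451). Hif3a (ENSMUSG00000004328), some of whose products restrain the other subunits, was low and variable, at 2.13 to 6.72 CPM (median 3.70) in controls and 1.62 to 5.93 CPM (median 2.72) in S1Pless hearts, from 36 to 125 reads. With coefficients of variation of 44.1% and 49.2% its interval was wide (log2 fold change -0.37 ± 0.35, 95% interval -1.11 to 0.37), which includes a change as large as that of Egln3.

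Vhl (ENSMUSG00000033933), the recognition subunit of the ligase that marks hydroxylated HIF alpha for degradation, had 9.27 to 11.5 CPM in controls (median 11.1) and 8.61 to 12 CPM in S1Pless hearts (median 11). The log2 fold change was -0.0003 ± 0.11, with a 95% interval from -0.23 to 0.23. Control replicate 1 and S1Pless replicate 2 were the lowest of their groups.

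The hypoxia targets among the members did not share a call with Egln3. Bnip3 (ENSMUSG00000078566), which encodes a mitochondrial protein that starts the removal of mitochondria, had 120, 129, 124, 128 and 117 CPM in the controls and 85.4, 95.2, 102, 116 and 78.7 CPM in S1Pless hearts. All S1Pless hearts lay below all controls, though S1Pless replicate 4 came within 2 CPM of the lowest control. The means of 124 ± 5.13 and 95.5 ± 14.5 CPM gave a log2 fold change of -0.37 ± 0.10 (95% interval -0.59 to -0.15), with an unadjusted p of 0.00306 and an edgeR adjusted p of 0.0656. DESeq2 called it (adjusted p = 0.00826), as did edgeR without S1Pless replicate 4 (adjusted p = 0.0290), and over all 20 alternatives the adjusted p ran from 0.00826 to 0.194. Vegfa (ENSMUSG00000023951), the vessel growth factor, had 414, 497, 406, 398 and 360 CPM in the controls and 435, 429, 362, 405 and 300 CPM in S1Pless hearts, ranges that overlapped broadly. Its log2 fold change was -0.10 ± 0.12 (95% interval -0.37 to 0.16, edgeR adjusted p = 0.683). Ankrd37 (ENSMUSG00000050914), an ankyrin repeat gene induced by HIF-1, had 2.78 to 6.77 CPM in controls (median 5.79) and 4.64 to 6.96 CPM in S1Pless hearts (median 5.55), with a log2 fold change of 0.05 ± 0.21 (95% interval -0.39 to 0.49). Its exons overlap those of Ufsp2 and Lrp2bp on the other strand in the annotation, and the strand setting of the counting is not given in the sources used here, so its counts are uncertain. A similar limit holds for Bnip3, with 504 of 2265 exon bases overlapped by Gm45507 on the other strand. For Hif1a, of 5896 bases, Gm15283 overlaps 330 on the other strand and Gm49321 148 on the same strand. Gm45507, Gm15283 and Gm49321 are absent from the count table.

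**Figure D3:**
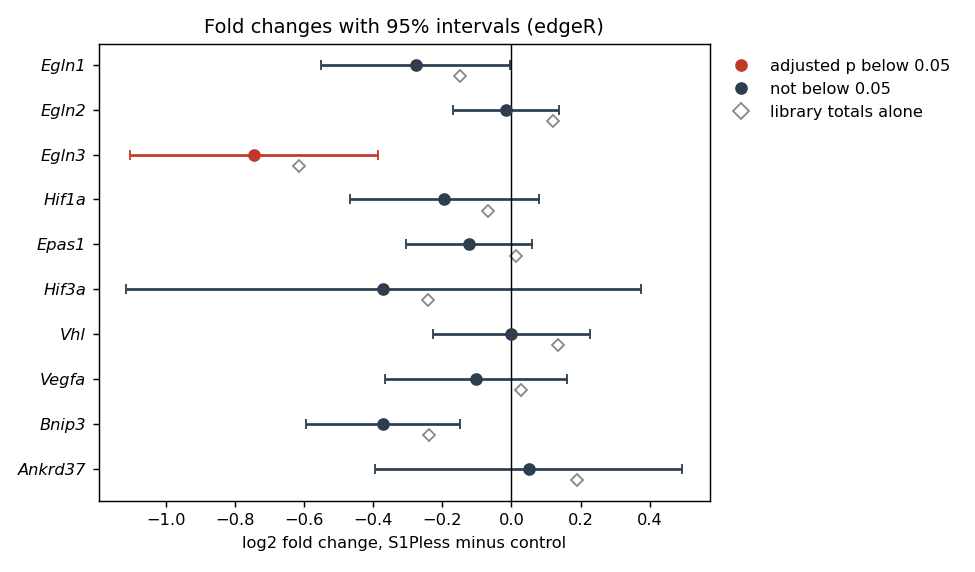
Log2 fold change of each member, S1Pless minus control, with its 95% interval from edgeR, and open diamonds for the value with library totals alone in place of trimmed-mean factors. Egln3 is the only member called (red, -0.75), and the intervals of Bnip3 (-0.59 to -0.15) and Egln1 (-0.55 to -0.0045) also lie below 0.

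In all, 9 of the 10 members had a log2 fold change below 0, with a median of -0.16, against 52.6% below 0 and a median of -0.014 over all genes tested. This was not particular to the members. All 10 cardiomyocyte markers (median -0.19) and all 5 VHL ligase genes (median -0.17) were below 0. So were 5 of 8 smooth muscle and pericyte, 3 of 10 endothelial, 1 of 10 fibroblast, 0 of 12 macrophage and 0 of 5 red cell markers. At an unadjusted p below 0.05, 3 of 10 members were lower (Egln3, Bnip3 and Egln1) and none higher in edgeR, against 6.82% of all tested genes lower at that p. Both counts include Egln3, whose fall was known beforehand. With library totals alone the median of all genes moved to 0.12, and the signs of Egln2, Epas1, Vhl and Vegfa turned, so the direction of these 4 genes rests on the scaling. The signs of Egln3, Bnip3, Egln1, Hif1a and Hif3a were the same under every scaling tried.

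Whether the fall of Egln3 differed from the change of each other member was tested with the ratio of Egln3 to that member within each heart, which needs no scaling factor. Relative to Egln2 the log2 ratio fell from 0.58 ± 0.45 to -0.12 ± 0.24 (SD, n = 5 each), a difference of -0.70 (two-sided exact permutation p = 0.0159). Relative to Vhl the difference was -0.71 with no overlap between groups (exact permutation p = 0.00794, the smallest that 5 against 5 hearts allow). Relative to Egln1 it was -0.44 (exact permutation p = 0.0317) and relative to Bnip3 -0.33 (exact permutation p = 0.175). After Benjamini-Hochberg adjustment over the 9 ratios none passed, with adjusted exact permutation p-values from 0.0536 to 0.302, and 6 of the 9 had an unadjusted p below 0.05. Even at the smallest p that these hearts allow, a single ratio could not pass this adjustment alone. All 9 differences were below 0, which follows from Egln3 having the lowest log2 fold change of the members. The fall of Egln3 was known beforehand and all 9 ratios share its values. Relative to genes that hardly changed, such as Vhl and Egln2, the ratio mostly repeats the group difference of Egln3. The ratios are therefore no separate support for that fall. A difference in change between Egln3 and the other members was therefore not established here. Without control replicate 1, 3 or 4, respectively 4, 3 and 5 ratios passed.

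From heart to heart within groups, Egln3 moved with some members and not with others, and no relation passed adjustment. The measure was the correlation of deviations from the group means of log2 CPM over the 10 hearts. Every exchange of hearts within groups was enumerated, with adjustment over 12991 genes. The smallest exact permutation p this allows is 6.94e-05, too large for a single gene to pass that adjustment alone. Not passing thus does not show that a relation is absent. For Egln1 the Pearson r was 0.66 and Spearman's rho 0.60 (exact permutation p = 0.0406 and 0.0939). For Hif3a they were 0.69 and 0.67 (exact permutation p = 0.0460 and 0.0516), and for Vhl 0.60 and 0.60 (exact permutation p = 0.0441 and 0.0929). For Egln2 they were -0.67 and -0.64 (exact permutation p = 0.0605 and 0.0544), but with library totals alone the r of Egln2 was -0.018, so this negative value rests on the scaling. Adjusted p was 0.473 for each of these r values. Among the other members 3 had an unadjusted exact permutation p of r below 0.05, as had 1345 of all 12991 genes. The targets Bnip3 (r = 0.12, rho = 0.10, exact permutation p = 0.687 and 0.743) and Vegfa (r = -0.21, rho = -0.24, exact permutation p = 0.565 and 0.546) showed little relation to Egln3 within groups. The remaining r values were 0.10 for Hif1a, 0.16 for Epas1 and 0.40 for Ankrd37, with exact permutation p-values from 0.457 to 0.835. With library totals alone r was 0.53 for Epas1, 0.30 for Hif1a, 0.32 for Bnip3 and -0.016 for Vegfa, while Egln1, Hif3a and Vhl stayed between 0.70 and 0.74. Without control replicates 4 and 5, the hearts farthest from the median of Egln3, r was 0.87 for Egln1, 0.73 for Hif3a, 0.68 for Vhl, -0.42 for Egln2, 0.33 for Bnip3 and -0.10 for Vegfa.

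**Figure D4:**
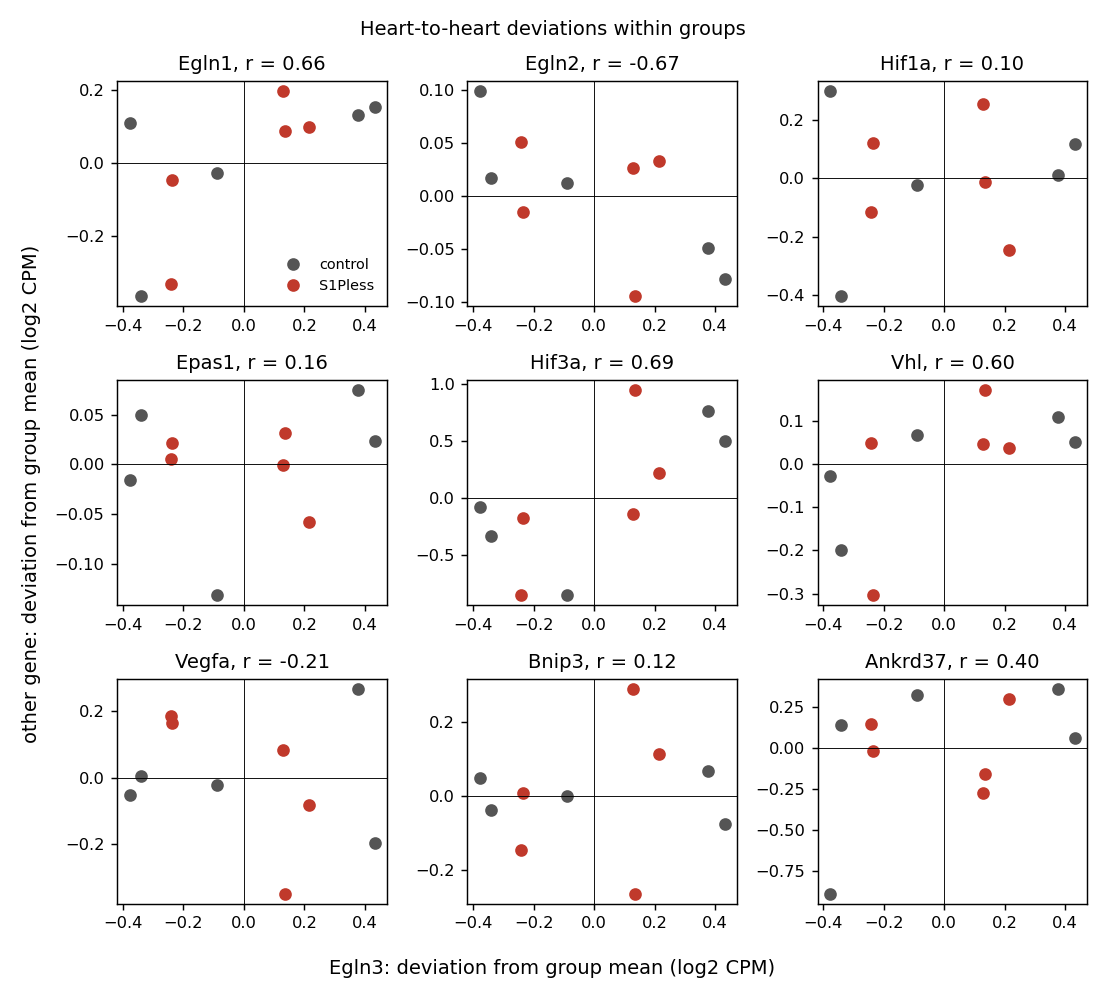
Deviation of each other member from its group mean (vertical, log2 CPM, own scale in each panel) against that of Egln3 (horizontal) in the 10 hearts, with control hearts in grey and S1Pless hearts in red. Points rise with Egln3 for Egln1 (r = 0.66), Hif3a (0.69) and Vhl (0.60), fall for Egln2 (-0.67) and scatter for Bnip3 (0.12).

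The genes most like Egln3 by this measure were Atp9a (r = 0.93), Tspyl4 (0.93), Pafah2 (0.92), E2f7 (0.92) and Ankrd34a (0.92), each over 10 hearts. Their Spearman's rho values ran from 0.85 to 0.95, the exact permutation p-values of r from 0.000625 to 0.00563, and the adjusted p was 0.473 for all 5. None of them is a listed HIF target, and none was called between the groups, with log2 fold changes from -0.73 for Ankrd34a to 0.25 for E2f7. Of the 12991 genes, 1345 had an unadjusted exact permutation p below 0.05 and 0 an adjusted one. Among 84 tested genes of the pathway lists 38 had a positive r and 46 a negative one, with a median of -0.11, against 0.017 over all genes. The highest of these, named after their values were seen, were Ak4, a mitochondrial adenylate kinase (r = 0.90, rho = 0.84, exact permutation p = 0.00424 and 0.00910), and P4ha1, a collagen prolyl hydroxylase (r = 0.87, rho = 0.81, exact permutation p = 0.00556 and 0.0133). Both are among the listed HIF targets, and both had an adjusted p of 0.473.

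The wider HIF machinery showed no call in edgeR with trimmed-mean factors. None of 6 tested partners and cofactors passed. The smallest p-values were those of Pkm, a glycolytic enzyme and HIF cofactor (691 ± 46.3 CPM in the controls and 611 ± 41.0 CPM in S1Pless hearts, log2 fold change -0.18 ± 0.09, adjusted p = 0.314), and Hsp90ab1, a chaperone that holds HIF alpha (-0.19 ± 0.13, adjusted p = 0.451). All 5 tested subunits and modifiers of the VHL ligase had log2 fold changes between -0.20 and -0.14 and none passed, Cul2, its scaffold, being at -0.17 ± 0.10 (adjusted p = 0.339) and Eloc, an adaptor, at -0.20 ± 0.12 (adjusted p = 0.378). No gene of these 2 lists had an unadjusted p below 0.05 in edgeR with all hearts, trimmed-mean factors and no further term. In edgeR 1 VHL ligase gene did with the title series covariate, with the title number block and in title series 38. Among the partners 1 gene did in edgeR with library totals alone and 1 in DESeq2. DESeq2 called none of either list. Of 10 inhibitors and modulators, 1 had an unadjusted p below 0.05 in edgeR with all hearts, trimmed-mean factors and no further term. This was Cited2, which competes with HIF for its coactivators and is itself a HIF target. It had 52.2, 47.7, 53.6, 64.8 and 49.4 CPM in the controls and 36.7, 37.6, 47.1, 43.4 and 43.9 CPM in S1Pless hearts, all below the lowest control. Its log2 fold change was -0.36 ± 0.10, with an edgeR adjusted p of 0.0686, and DESeq2 called it. Wsb1, a ligase subunit, was at 0.26 ± 0.12 (edgeR adjusted p = 0.264) and was called higher with library totals alone.

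Among known HIF targets outside the members, 2 were called higher and none lower with all hearts and no further term in the edgeR fit. Of 66 listed targets 63 were tested, 2 were higher, 0 were lower and 61 were not called by edgeR, against the shares of 3.4% higher and 0.316% lower over all genes. At an unadjusted p below 0.05, 9 of 63 were lower (14.3%) and 8 higher (12.7%), against 6.82% lower and 13% higher over all genes, and the median log2 fold change was -0.07. By role, the median was -0.14 for 18 glycolytic genes, 0.13 for 20 vessel and secreted factors and -0.06 for 25 others. DESeq2 called 3 of the targets higher (Hmox1, Pfkfb3 and Stc1) and 5 lower (Ak4, Edn1, Flt1, Hk2 and Pgk1). Over all 13821 genes with an adjusted p, DESeq2 called 753 higher and 266 lower. Limma-voom called the same 3 targets higher and 1, Edn1, lower, against 517 higher and 57 lower over all 12992 genes. In edgeR with the title number block the target calls were 0 higher and 1 lower, Ak4, against 80 higher and 8 lower over all genes. With the title series as a covariate the target calls were Pfkfb3 higher and Ak4 lower, against 321 and 39 over all genes.

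The 2 targets called were both higher in S1Pless hearts, and the title number block ended both calls (edgeR adjusted p = 0.0707 for Pfkfb3 and 0.190 for Hmox1). Pfkfb3, which makes the activator of phosphofructokinase, had 15.2, 11.8, 13.7, 15.6 and 14.2 CPM in the controls and 27.8, 21.9, 19.8, 16 and 25.1 CPM in S1Pless hearts. The groups did not overlap, S1Pless replicate 4 being closest to the controls, and the rise was 1.57-fold (log2 fold change 0.65 ± 0.14, edgeR adjusted p = 0.0215). Leaving out control replicate 2, 3 or 4 or S1Pless replicate 5 ended this call (edgeR adjusted p from 0.0501 to 0.0603), as did keeping only title series 38 (0.0688). Hmox1, the heme-degrading enzyme that macrophages express strongly, had 8.62, 7.79, 9.00, 7.68 and 7.21 CPM in the controls and 12.5, 14.0, 14.2, 13.2 and 31.9 CPM in S1Pless hearts. All S1Pless hearts lay above all controls, a 2.13-fold rise (log2 fold change 1.09 ± 0.24, edgeR adjusted p = 0.0255). Without S1Pless replicate 5, the heart with the highest macrophage marker sum, the log2 fold change was 0.73 (adjusted p = 0.00759). Leaving out any of control replicates 2 to 5 ended this call (edgeR adjusted p from 0.0553 to 0.0724), as did the title series covariate (0.0536). Their r with Egln3 within groups was -0.53 for Pfkfb3 and 0.08 for Hmox1 (exact permutation p = 0.0751 and 0.886). Among the targets of other roles the smallest p-values were those of Ak4 (32.6 ± 6.83 and 24.2 ± 3.74 CPM, log2 fold change -0.43 ± 0.14, edgeR adjusted p = 0.109) and Higd1a, a mitochondrial survival factor (-0.27 ± 0.10, edgeR adjusted p = 0.172). Ak4 was called lower with the title number block (log2 fold change -0.51 ± 0.10, edgeR adjusted p = 0.0404), with the title series covariate (-0.49 ± 0.12, edgeR adjusted p = 0.0398) and by DESeq2 (-0.45 ± 0.15, adjusted p = 0.0466), but not in title series 38 alone (edgeR adjusted p = 0.238) or with any heart left out.

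**Figure D5:**
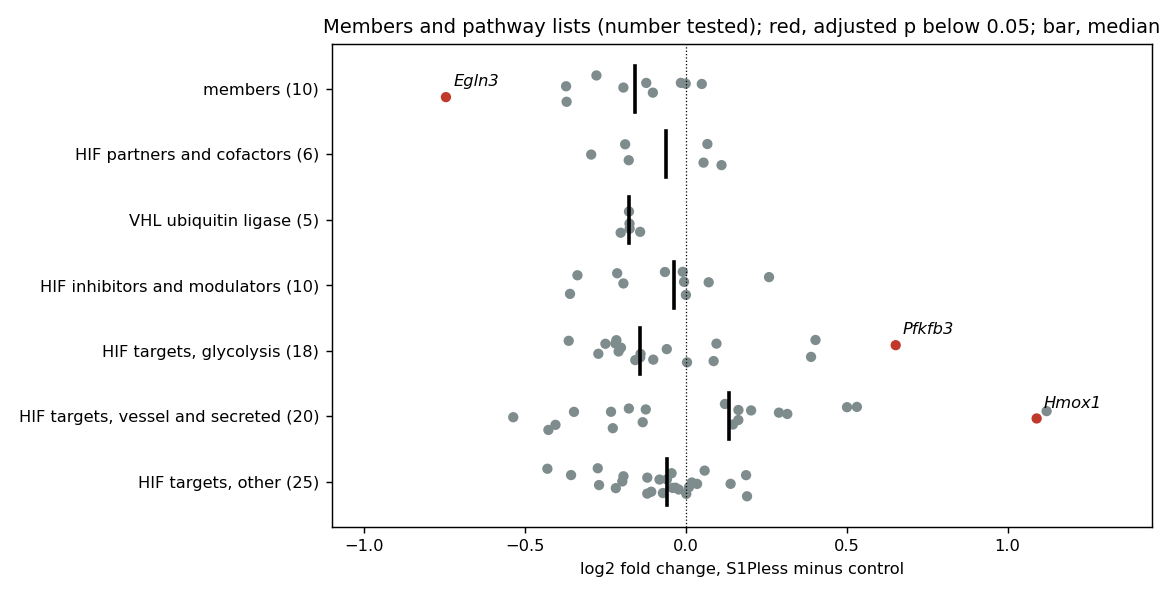
Log2 fold change, S1Pless minus control, of every tested gene of the members and of the 6 pathway lists, 1 point per gene, with called genes in red and black bars for the medians; the vertical spread within a line only separates the points. Egln3 (-0.75) is the only called gene below 0, and Pfkfb3 (0.65) and Hmox1 (1.09) are the called genes above it.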

How the data were processed

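The authors deposited raw read counts per Ensembl gene for all 10 hearts in 1 table. Stranded mRNA libraries were built from TRIzol-extracted heart RNA, per the labels' protocols. Per the submitters' processing notes, the tools were STAR 2.7.8a and featureCounts 2.0.1 and the build was GRCm39. The annotation, the strand setting and how multi-mapping reads were counted were not given in the sources used. Replicates were numbered in accession order, each sample is labelled as a separate heart, and the labels pair none.

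Symbols came from GENCODE M21; 20 genes had none, and of 2 rows named Aldoa the one with more reads was used. Counts were tested with edgeR 4.0.16 in R 4.3.3 (filterByExpr with a minimum count of 10, TMM, robust glmQLFit, glmQLFTest, two-sided, Benjamini-Hochberg). Log2 CPM used a prior count of 2. On simulated counts of the 12992 genes, 5 against 5, the test recovered 60% of genes changed 1.5-fold and 86% of those changed 2-fold. The simulation changed 100 genes at each fold, up and down in equal number. It drew each gene independently from its fitted dispersion. Variation that many genes share within a heart was not simulated, so recovery in the real hearts may differ. DESeq2 1.42.0, limma 3.58.1 (voom), other scalings and filters, title-number terms and leaving out each heart were alternatives.

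The members, the lists and the tests were chosen with earlier results of these data known. The text names the members, up to 4 called genes of each list or otherwise the 2 smallest p-values, and the 5 genes likest to Egln3 with at least 1 CPM; others are named as chosen after their values were seen, as are the genes that DESeq2 or limma-voom called.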

Additional observations from a re-analysis of the deposited data

Results flagged for a closer look

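Hmox1 in S1Pless replicate 5, at 31.9 CPM, stood far from the other 4 S1Pless hearts, which had 12.5 to 14.2 CPM; the gap made up 0.909 of the range of the group. It was the only 1 of 52 groups of 5 hearts (26 named genes in each genotype) in which the highest or lowest heart lay that far from the rest, and chance flags about 1 in 20 groups. None of the 10 oxygen-sensing and HIF genes had such a heart.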

How the results depend on the processing

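The direction of Egln3 was the same under all 20 alternatives and its call under 14. It was lost in 5 fits with a heart left out (log2 fold change -0.84 to -0.63 over the 10 such fits) and among hearts whose title number starts with 38 (-0.72). The count of members called was 2 with DESeq2, 0 among the hearts of title series 38 and 0 to 2 with a heart left out. HIF targets called numbered 6 with library totals alone (6 higher), 8 with DESeq2, 4 with limma-voom, 1 with the title number block (Ak4, lower, while Pfkfb3 and Hmox1 lost their calls), 1 in title series 38 (Hmox1, higher) and 0 to 4 with a heart left out. Calls over all genes, 483 with 442 higher and 41 lower, became 1433 (1420 and 13) with library totals alone, 1019 (753 and 266) with DESeq2, 88 (80 and 8) with the title number block and 46 (45 and 1) in title series 38; with a heart left out they ran from 126 to 589 (118 to 504 higher and 8 to 85 lower). The cause of these changes was not tested. Title series 38 and the fits with a heart left out hold fewer hearts. With the title number block, the controls in the block without S1Pless hearts did not enter the group difference, as described with Egln3. That fit thus also compared fewer hearts.

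Signs that turned were all in genes without a call. With library totals alone they were Egln2 (0.12), Epas1 (0.012), Vhl (0.14) and Vegfa (0.028), with the title number block Egln2 (0.025), Vhl (0.028) and Ankrd37 (-0.044), and Vhl also with upper-quartile factors (0.0072) and with a filter of 1 CPM in 5 libraries (0.0049). With a heart left out the log2 fold changes ran from -0.035 to 0.0095 for Egln2, -0.059 to 0.068 for Vhl and -0.12 to 0.15 for Ankrd37. In those fits r with Egln3 ran from -0.30 to 0.46 for Hif1a, -0.086 to 0.34 for Epas1, -0.62 to 0.011 for Vegfa, -0.0017 to 0.31 for Bnip3 and -0.051 to 0.51 for Ankrd37. No r with a member passed adjustment under any of 13 alternatives. With a heart left out fewer exchanges of hearts are possible, so the smallest possible exact permutation p is larger and passing is harder still. This result is therefore no check on whether the relations are absent. Ratios of Egln3 to another member passed 0 to 5 times of 9 with a heart left out, and 0 times with a prior count of 0.5. The labels pair no hearts, and whether neighbouring title numbers mark litters is not stated, so the block is an alternative. Depth was lowest for Hif3a, at 36 to 125 reads, and Ankrd37, at 51 to 138 reads.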

Other observations

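Of the 88 genes of the pathway lists 4 were too low to test. Epo, the kidney hormone gene that HIF-2 controls, had 2 to 9 reads in controls and 3 to 9 in S1Pless hearts. Car9, a carbonic anhydrase induced by HIF-1, had 0 to 4 and 2 to 5 reads, Aldoc, an aldolase, 0 to 2 and 1 to 5, and Arnt2, a relative of the HIF partner ARNT, 3 to 9 and 1 to 13.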
